A study of Mus musculus with 18 samples.

Results

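Complement regulators were read in retinal RNA as 9 genes picked by name, Cfi, Cfp, Serping1, Clu, Vtn, Cd55, Cd59a, Cd46 and Cr1l, out of 23420 gene symbols counted in each mouse. Every one of the 9 passed the filter on low counts, which kept 15196 genes. They fall into 5 genes for secreted proteins (Serping1, Cfi, Cfp, Clu and Vtn) and 4 for proteins of the cell surface (Cr1l, Cd46, Cd55 and Cd59a).

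The retinas came from wild-type BALB/cJ mice, an albino strain, in 3 groups of 3 individual young adult animals. Naïve mice were neither exposed to light nor treated. Vehicle-treated mice received intraperitoneal DMSO every day from the day before light, and were then exposed, after dark adaptation and with dilated pupils, to 15000 lux for 1 h. TD139-treated mice had the same light and daily injections of TD139 in DMSO at 15 mg/kg. TD139 is a thiodigalactoside derivative that inhibits galectin-3, a sugar-binding protein of microglia and macrophages. Retinas of light-exposed mice were taken 4 days after the light. As naïve mice got neither injection nor light, the effects of vehicle and of light cannot be told apart.

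Complement is a cascade of plasma and tissue proteins that tags surfaces with fragments of C3 and C4 and ends in a pore, the membrane attack complex. Regulators hold it back at each step: in fluid by blocking the starting proteases, by cutting C3b and C4b or by catching the terminal proteins before they insert, and on the cell's own membrane by taking convertases apart or blocking the pore. Properdin, the product of Cfp, is the exception, since it stabilises the alternative pathway convertase. In the eye, retinal glia, photoreceptors and the pigment epithelium make many of these proteins, and several are part of the deposits under the retina in macular degeneration.

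The reads counted on genes numbered 26171887 to 30201517 per mouse, and 3 counts, taken as the limit of detection, correspond to 0.0993 to 0.115 CPM, which is counts divided by library size. This limit covers counting error only. The levels below are CPM with library sizes adjusted by TMM factors. The runs from both flow cells were added up within each mouse, which is the unit of replication. A gene was called where its adjusted p-value (Benjamini and Hochberg, over all tested genes) was under 0.05 in edgeR's quasi-likelihood test with all 3 groups in the fit. Vehicle-treated mouse 2 stood apart by its lens transcripts, with a sum of 6 crystallin and other lens markers of 9029 CPM against 0.731 to 405 CPM in the other 8 mice. Rod marker genes, 9 of 9 detected in every mouse, summed to 45437 to 49085 CPM in naïve retinas, as a check of the tissue. Reads outside genes were 21.3 to 22.8% in TD139-treated mice and 16.5 to 19.9% in the other 6, and ambiguous reads 0.303 to 0.363% against 0.374 to 0.471%, so both shares separated TD139-treated mice from the rest; their part in the comparisons with TD139 was not tested. In bulk retina, fewer cells of a type and less RNA per cell cannot be told apart.

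Cd46 and Cr1l lie side by side on chromosome 1, 5132 bases apart and on the same strand, and differed in level (means of 1.32 CPM per kilobase of transcript for Cr1l and 0.0574 for Cd46 in naïve mice), whereas no test compared their courses across the groups. Their upstream sequences are shown with that of Vtn, the most abundant member in naïve retina, because the homeobox factors OTX2 and CRX of photoreceptors bind the short core TAATCN, and a match to it was found in Vtn and Cr1l but not in Cd46. Each run is the 250 bases before the RefSeq start on build GRCm38.p6, written 5′ to 3′ on the strand of the gene, with matches to TAATCN on either strand in capitals. Cr1l is chr1:195131571-195131820 on the minus strand, Cd46 chr1:195092249-195092498 on the minus strand and Vtn chr11:78498870-78499119 on the plus strand.
Cr1l: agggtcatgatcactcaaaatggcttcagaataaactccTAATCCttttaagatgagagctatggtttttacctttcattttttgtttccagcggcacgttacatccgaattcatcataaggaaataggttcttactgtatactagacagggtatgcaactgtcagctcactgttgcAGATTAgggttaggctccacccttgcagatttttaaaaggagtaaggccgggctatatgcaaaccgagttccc
Cd46: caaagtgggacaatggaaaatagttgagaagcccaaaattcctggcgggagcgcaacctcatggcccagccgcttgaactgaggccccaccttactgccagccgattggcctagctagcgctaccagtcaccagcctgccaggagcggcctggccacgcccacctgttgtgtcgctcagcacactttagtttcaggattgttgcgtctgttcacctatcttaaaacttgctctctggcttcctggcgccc
Vtn: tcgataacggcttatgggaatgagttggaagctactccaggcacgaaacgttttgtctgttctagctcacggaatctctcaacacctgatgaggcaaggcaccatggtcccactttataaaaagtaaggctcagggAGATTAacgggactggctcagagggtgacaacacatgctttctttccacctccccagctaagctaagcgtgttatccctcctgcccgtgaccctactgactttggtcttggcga

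Of the 9 members, 6 had an entry among 32851 RefSeq promoters; Cfi, Serping1 and Clu did not. The core TAATCN began 211 and 73 bases before the start of Cr1l and 114 bases before that of Vtn, and 19.8% of all promoters held it in the same 250 bases. The STAT motif TTCNNNGAA (7.02% of promoters) and the AP-1 motif TGANTCA (6.75%) were in none of the 6 windows. The motif of interferon regulatory factors (GAAA, any 2 bases, GAAA, 2.98% of promoters) was only in that of Cd59a, 187 bases before the start. These are matches of letters and describe no binding.

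The first comparison asked what differed between vehicle-treated, light-exposed retinas and naïve retinas. Serping1, Clu and Cfi of the secreted regulators and Cr1l of the membrane regulators rose, while no member fell. These 4 of 9 (4 higher, 0 lower) compare with 7.8% of all tested genes called, 4.91% higher and 2.89% lower. The same 4 members had all vehicle-treated mice above all naïve mice, as 16.6% of tested genes did. The median log2 fold change of the members was 0.86 and that of all tested genes -0.00175.

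Serping1 encodes the C1 inhibitor, a serpin that inactivates C1r, C1s and the lectin pathway proteases. It stood at 5.65, 10.4 and 4.98 CPM in naïve mice 1 to 3 and at 61.2, 81.3 and 103 CPM in the vehicle-treated mice. No vehicle-treated mouse came near a naïve one, and the means were 7.01 ± 2.95 and 82.0 ± 21.1 CPM (SD, n = 3). Serping1 was thus 11.7-fold higher (log2 fold change 3.55, standard error (SE) 0.81, adjusted p = 0.0493 in edgeR).

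Cfi encodes factor I, the protease that cuts C3b and C4b when a cofactor such as CD46 or CR1L holds them. Its level was low, at 1.57, 1.39 and 1.03 CPM (41, 37 and 28 counts) in naïve mice. In vehicle-treated mice it was 5.43, 5.499 and 8.03 CPM, above every naïve value. The fold change was 4.74 (log2 2.24, SE 0.35, adjusted p = 0.0127 in edgeR). Cfi and Serping1 were called and also passed the study's cut-off of a log2 fold change of 2, as 1.24% of tested genes did by both criteria in that direction.

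Clu encodes clusterin, a secreted chaperone that binds the terminal complement proteins and keeps them from entering membranes. It was already abundant in naïve retina, with 834, 1158 and 948 CPM. The vehicle-treated mice held 2140.1, 2971 and 2793 CPM, so that the lowest of them lay above the highest naïve mouse. Clu was 2.69-fold higher (log2 1.43, SE 0.30, adjusted p = 0.0286 in edgeR).

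Cr1l encodes CRRY, the rodent membrane protein that both takes convertases apart and serves as a cofactor for factor I. The naïve mice agreed closely at 3.46, 3.92 and 3.63 CPM, and the vehicle-treated mice held 6.33, 7.97 and 5.91 CPM. The groups did not overlap, and Cr1l was 1.84-fold higher (log2 0.88, SE 0.20, adjusted p = 0.0294 in edgeR). Of its 50-base transcript windows, 16.8% also occurred in Crry-ps or Gm49375, so its reads may be partly split or dropped.

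**Figure D1:**
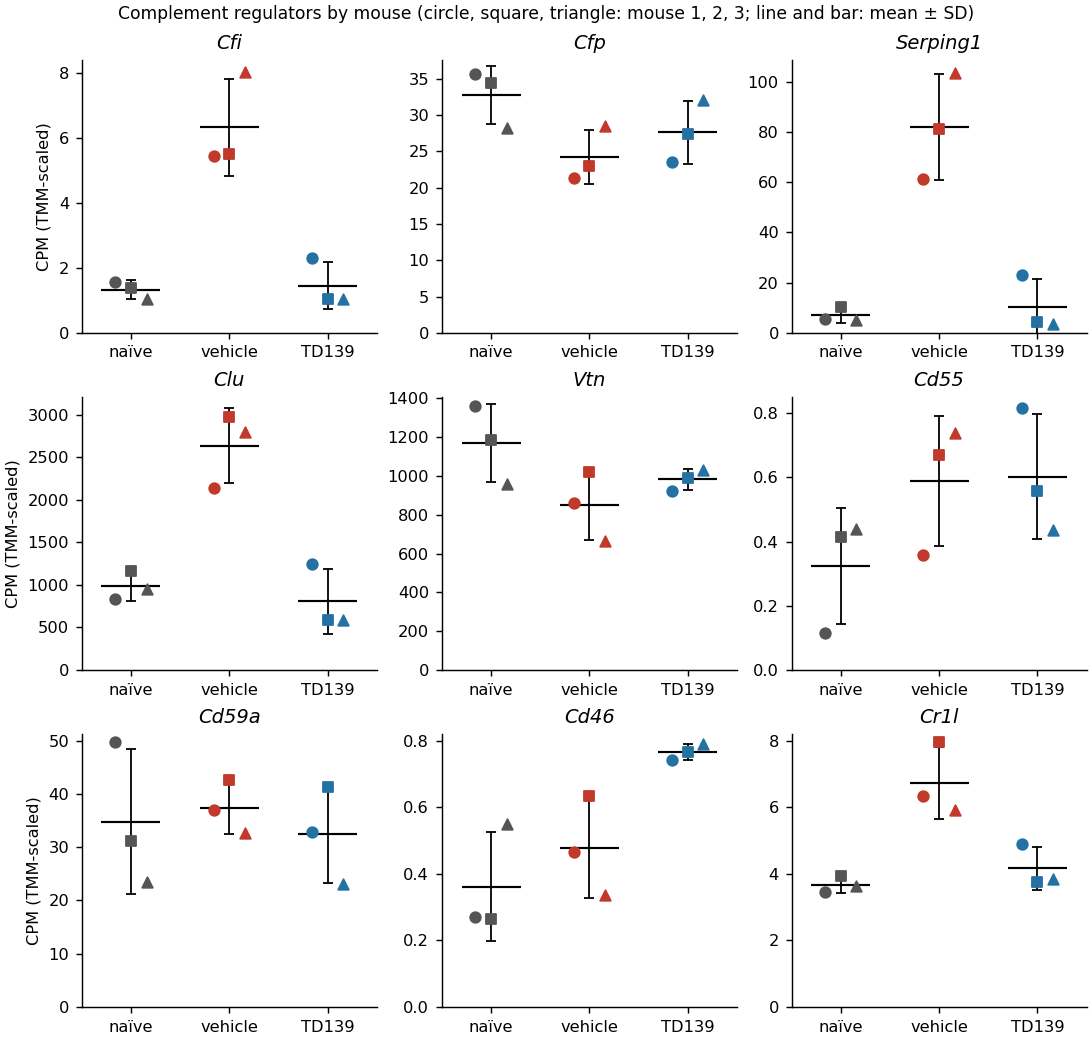
Level of each regulator in every mouse, as TMM-scaled CPM on linear axes that start at 0; circles, squares and triangles are mice 1, 2 and 3 of a group, the line is the mean and the bar the SD of 3 mice. In the panels of Cfi, Serping1, Clu and Cr1l all 3 vehicle-treated mice lie above all naïve and all TD139-treated mice, whereas in Cd46 the 3 TD139-treated mice lie above the rest.

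The remaining 5 members were not called between vehicle-treated and naïve mice. Vtn, whose product vitronectin also blocks insertion of the terminal complex and in addition binds integrins, stood at 1363, 1186 and 959 CPM in naïve mice and at 862, 1022 and 664 CPM in vehicle-treated mice. The groups overlapped between 959 and 1022 CPM, and the log2 fold change was -0.46 (SE 0.16, adjusted p = 0.0972 in edgeR). Cfp, which lies on chromosome X, was at 35.6, 34.4 and 28.1 CPM against 21.3, 22.9 and 28.4 CPM, with a log2 fold change of -0.43 (SE 0.15, adjusted p = 0.0963 in edgeR). For both genes only 1 vehicle-treated mouse lay within the naïve range, mouse 2 for Vtn and mouse 3 for Cfp.

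These 2 values passed the threshold in other fits with the same sign. Vtn was called lower with DESeq2 (log2 fold change -0.46, adjusted p = 0.0437), with limma voom and sample weights (-0.47, adjusted p = 0.0203) and with an offset for the length and GC content of transcripts (-0.68, adjusted p = 0.0233). Cfp was called lower with limma voom (-0.53, adjusted p = 0.0145) and with that offset (-0.67, adjusted p = 0.0186). The offset itself moved the median of all genes to -0.15, so part of each of its values is that shift.

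Cd59a encodes the glycolipid-anchored protein that stops the last step of pore formation. It varied more among naïve mice (49.8, 31.2 and 23.4 CPM) than between the groups, and the vehicle-treated mice (37.0, 42.6 and 32.7 CPM) lay inside the naïve range. The log2 fold change was 0.11 with an SE of 0.28 (adjusted p = 0.835 in edgeR).

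Cd55 and Cd46 were close to the limit of detection. Cd55, which encodes decay accelerating factor, had 3, 11 and 12 counts in naïve mice and 10, 19 and 22 counts in vehicle-treated mice, which is 0.115 to 0.440 CPM against 0.357 to 0.739 CPM. Cd46, a cofactor of factor I that in mice is known mainly from sperm, had 7, 7 and 15 counts and then 13, 18 and 10 counts. Neither difference was detectable at this depth, with log2 fold changes of 0.86 for Cd55 (SE 0.53, adjusted p = 0.320 in edgeR) and 0.40 for Cd46 (SE 0.45, adjusted p = 0.595 in edgeR). Both genes overlap annotated transcripts of the opposite strand, Gm16083 and A330023F24Rik, and whether counting used the strand is not given in the sources used here. Cd55 also shares 13.3% of its 50-base windows with Cd55b, and Daf2, the older symbol of that gene, had 0 counts in all 9 mice.

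The second comparison set TD139-treated against vehicle-treated mice, both exposed to light, so it shares the vehicle-treated mice with the first. Here Cfi, Serping1, Clu and Cr1l fell, and no member rose. Calls were far more frequent over the genome than in the first comparison: 33.4% of tested genes were called, 16.2% lower and 17.2% higher. For the 4 members all TD139-treated mice lay below all vehicle-treated mice, as did 25.4% of tested genes. The median log2 fold change of the 9 members was -0.21, against -0.02 for all tested genes.

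Serping1 was at 23.2, 4.21 and 3.48 CPM in TD139-treated mice 1 to 3, with a mean of 10.3 ± 11.2 CPM (SD, n = 3). Mouse 1 was the highest of its group but still well below the lowest vehicle-treated mouse. The level was 7.95-fold lower than with vehicle (log2 fold change -2.99, SE 0.79, adjusted p = 0.0291 in edgeR). Without TD139-treated mouse 1, the log2 fold change was -4.41.

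In TD139-treated mice 1 to 3, Cfi had 62, 30 and 26 counts, or 2.30, 1.04 and 1.03 CPM. Again mouse 1 was the highest, and again it lay below each vehicle-treated mouse. Cfi was 4.33-fold lower (log2 -2.12, SE 0.35, adjusted p = 0.00568 in edgeR). Cfi and Serping1 were called and past a log2 fold change of -2, as were 1.53% of tested genes by both criteria. Under 10 other settings of the fit Cfi ranged from -2.45 to -1.87, so it was not past -2 in all of them. Serping1 ranged from -4.00 to -2.65.

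Clu stood at 1245, 582 and 588 CPM, a 3.27-fold lower level than with vehicle (log2 -1.71, SE 0.30, adjusted p = 0.00651 in edgeR). Mice 2 and 3 lay below the lowest naïve mouse (834 CPM) and mouse 1 above the highest (1158 CPM). Cr1l, at 4.89, 3.76 and 3.83 CPM, was 1.62-fold lower (log2 -0.70, SE 0.20, adjusted p = 0.0228 in edgeR). In Cr1l too mouse 1 had the highest value of the group. Under 10 other settings Clu ranged from -1.97 to -1.26 and Cr1l from -0.85 to -0.58. Log2 fold changes of this comparison rose with transcript length across 15068 genes (Spearman correlation 0.50, as a description). The transcripts are 1768 (Serping1), 1810 (Clu), 2079 (Cfi) and 2776 bases (Cr1l). With an offset for length and GC content 4 members were still called lower in edgeR.

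Among the members not called, the TD139-treated mice held 925, 992 and 1031 CPM of Vtn (log2 fold change 0.21, SE 0.16, adjusted p = 0.331 in edgeR) and 23.5, 27.3 and 32.1 CPM of Cfp (0.19, SE 0.15, adjusted p = 0.353 in edgeR). Cd59a was at 32.9, 41.3 and 23.1 CPM (-0.21, SE 0.28, adjusted p = 0.593 in edgeR). All 3 genes overlapped between the groups. With the offset for length and GC content, which moved the median of all genes to 0.13, Vtn (0.72, adjusted p = 0.0190) and Cfp (0.75, adjusted p = 0.0135) were called higher in edgeR.

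Cd46 had 20, 22 and 20 counts (0.741, 0.765 and 0.790 CPM), more in CPM than any vehicle-treated or naïve mouse. It was the only member to separate upwards from vehicle, as 26.1% of tested genes did, and the log2 fold change of 0.67 had an SE of 0.42 (adjusted p = 0.231 in edgeR). Cd55 was at 22, 16 and 11 counts, with a log2 fold change of 0.03 (SE 0.51, adjusted p = 0.968 in edgeR).

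**Figure D2:**
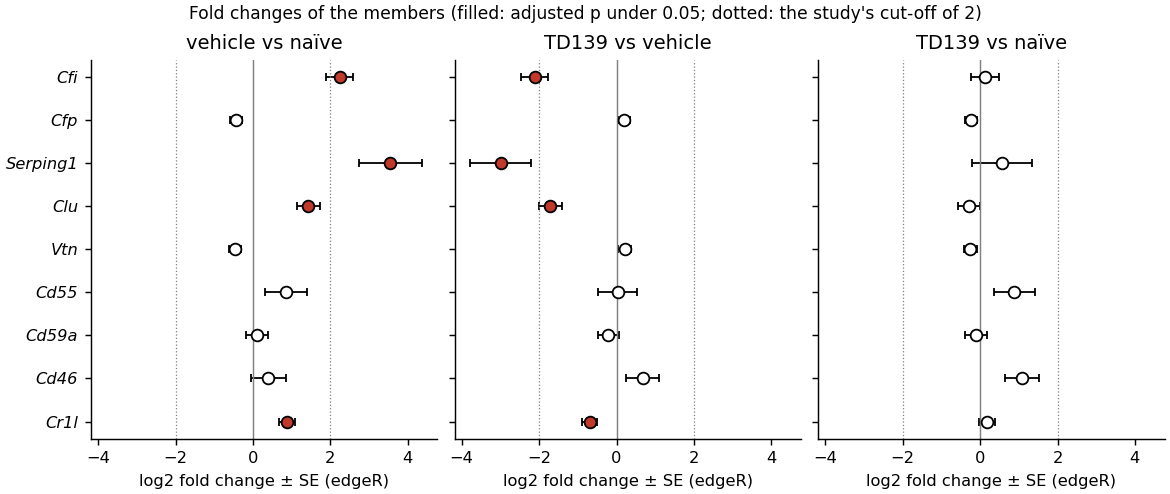
Log2 fold changes of the 9 regulators with their SE from edgeR, in 3 panels for the comparisons between groups of 3 mice; filled points had an adjusted p under 0.05 and dotted lines mark the study's cut-off of 2. Cfi, Serping1, Clu and Cr1l are filled on the right in the first panel and on the left in the second, and no point is filled in the third.

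The third comparison set TD139-treated against naïve mice. None of the 9 members was called in edgeR (adjusted p from 0.133 to 0.846), where 5.1% of tested genes were. At an unadjusted p under 0.05 there was 1 member, as against 29.6% of tested genes. It was Cd46, with a log2 fold change of 1.07 (SE 0.44, unadjusted p = 0.0317, adjusted p = 0.133 in edgeR) and all TD139-treated above all naïve mice, as for 15.4% of tested genes. DESeq2 called 0 members, where it called 2518 of all genes. With sample weights, limma voom called 2 members, where it called 5467 of all genes. These 2 were Cd46, higher (1.40, adjusted p = 0.00724 in limma voom), and Clu, lower (-0.76, adjusted p = 0.00914). Cd46 has the longest transcript of the members (6288 bases), and log2 fold changes of TD139-treated against naïve mice rose with transcript length across 15068 genes (Spearman correlation 0.61, as a description). With a per-mouse offset for length and GC content Cd46 was at 0.53 against naïve (adjusted p = 0.668 in edgeR) and at 0.17 against vehicle (adjusted p = 0.792).

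The log2 fold changes of the 4 members that had moved were 0.56 for Serping1 (SE 0.77), 0.13 for Cfi (SE 0.35), -0.28 for Clu (SE 0.29) and 0.18 for Cr1l (SE 0.20). A p-value above the threshold does not show that TD139-treated and naïve retinas were alike, and TD139-treated mouse 1 set the sign in part. Without it, Clu was called lower than in naïve mice (-0.73, adjusted p = 0.0299 in edgeR), and the values of Serping1 and Cfi turned to -0.85 and -0.35 without being called.

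Leaving out single mice left the direction of Cfi, Serping1, Clu and Cr1l in place in the first and second comparisons, in all 9 such fits, but not every call. Calls over all genes changed as well. In the first comparison they were 1185 with all mice, and 91, 1 and 217 without naïve mouse 1, 2 or 3. They were 249, 973 and 84 without vehicle-treated mouse 1, 2 or 3, and 1982, 978 and 901 without TD139-treated mouse 1, 2 or 3. Between vehicle-treated and naïve mice, Cfi ranged from 2.03 to 2.39 and was called in 7 of 9 fits, failing without naïve mouse 2 (adjusted p = 0.0651) or vehicle-treated mouse 3 (0.0504). Clu (1.33 to 1.58) and Cr1l (0.74 to 0.96) were called in 3 of 9 fits each, those without 1 of the TD139-treated mice, and failed without any 1 of the naïve or vehicle-treated mice, with adjusted p up to 0.0918 and 0.0882. Serping1 (3.35 to 3.96) was called in 2 of 9, without TD139-treated mouse 1 or 3, and its adjusted p reached 0.138.

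Between TD139-treated and vehicle-treated mice, Cfi (-2.61 to -1.91) and Clu (-2.17 to -1.53) were called in all 9 fits. Over all genes 5072 were called with all mice and 4285 to 5528 without a naïve mouse. There were 4383, 3754 and 2526 without vehicle-treated mouse 1, 2 or 3, and 5926, 1626 and 1917 without TD139-treated mouse 1, 2 or 3. Serping1 (-4.41 to -2.58) was called in 5 of 9 and failed without vehicle-treated mouse 2 (adjusted p = 0.0536) or 3 (0.0816) or TD139-treated mouse 2 (0.0919) or 3 (0.0718). Cr1l (-0.83 to -0.56) was called in 6 of 9 and failed without vehicle-treated mouse 2 (0.0826) or TD139-treated mouse 2 (0.0931) or 3 (0.0854). Without the lens-rich vehicle-treated mouse 2, 1 member was called in the first comparison, Cfi (2.33, adjusted p = 0.0187 in edgeR), and 2 in the second, Cfi (-2.204, adjusted p = 0.0136) and Clu (-1.61, adjusted p = 0.0172).

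**Figure D3:**
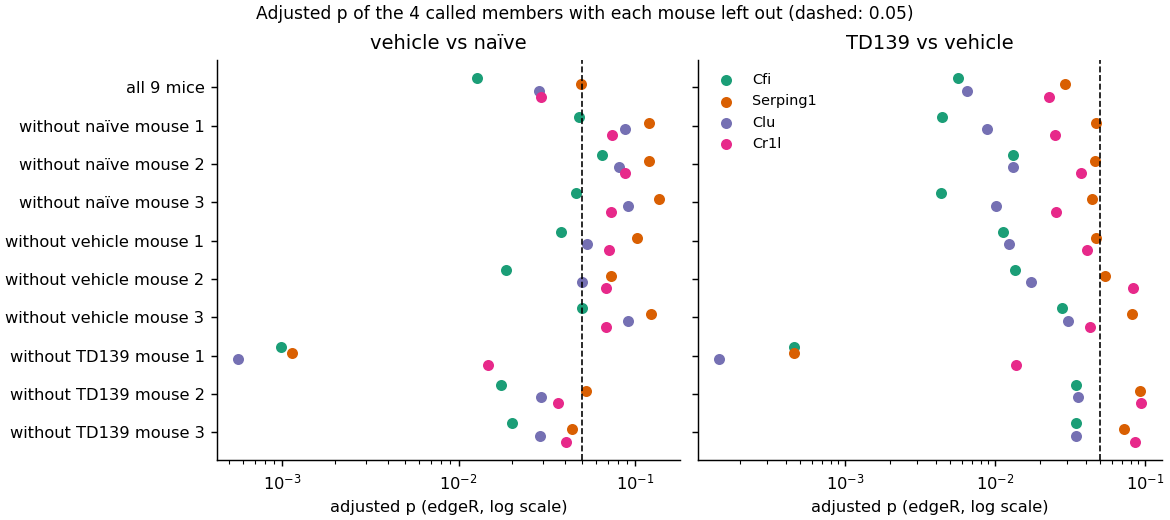
Adjusted p of Cfi, Serping1, Clu and Cr1l in edgeR with all 9 mice and in the 9 fits that each lack 1 mouse, on a log axis, for vehicle-treated against naïve (left) and TD139-treated against vehicle-treated mice (right). Points right of the dashed line at 0.05 were not called; leaving out TD139-treated mouse 1 gave the lowest values.

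Levels of different genes were compared per length, as CPM per kilobase of 1 annotated transcript. In naïve retina Vtn (670.4 CPM per kilobase) and Clu (541) were far above the rest, followed by Cfp (20.0), Cd59a (19.3), Serping1 (3.96), Cr1l (1.32), Cfi (0.641), Cd55 (0.128) and Cd46 (0.0574). Of these neighbours, Vtn and Clu, Cfp and Cd59a, and Cd55 and Cd46 overlapped across the naïve mice in that unit. Together Clu and Vtn made up most of the sum of the 9 genes, with means of 43.2% and 53.2%.

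With vehicle and light the order changed at the top. Clu reached 1456 CPM per kilobase and 71.6% of the members' sum, Vtn stood at 487 and 24.1%, and Serping1, at 46.4, took the third place ahead of Cd59a (20.7) and Cfp (14.8). In TD139-treated mice the order of naïve mice was seen again for Vtn (563) and Clu (445). The Clu to Vtn ratio of these levels was 0.589, 0.941 and 0.952 in naïve, 2.39, 2.80 and 4.06 in vehicle-treated and 1.30, 0.565 and 0.549 in TD139-treated mice. All vehicle-treated mice were above all others, which gives p = 0.1 in a two-sided exact permutation test against either group, the smallest p that 3 mice against 3 allow.

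**Figure D4:**
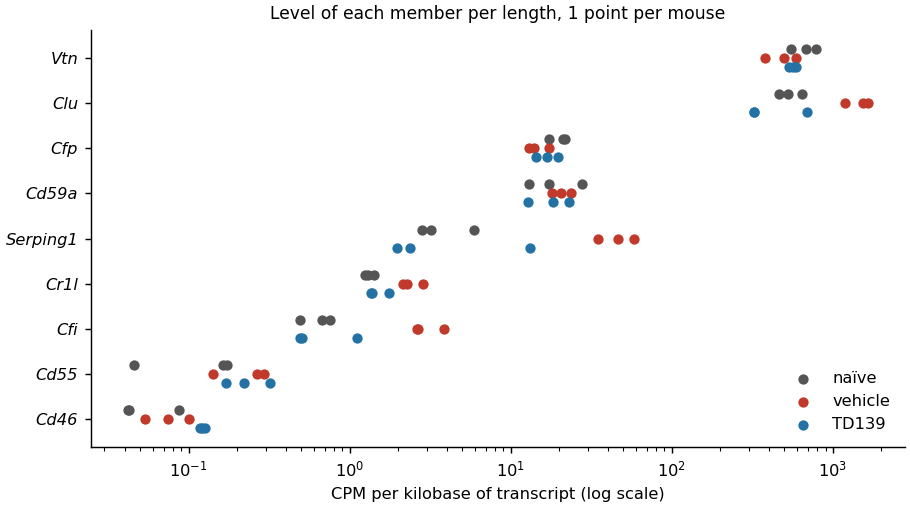
Level of each regulator per length, in CPM per kilobase of transcript on a log axis, with 1 point per mouse coloured by group. Vtn and Clu lie at the right, between 322 and 1642, and Cd46 and Cd55 at the left, at most 0.322; the vehicle-treated points of Clu, Serping1 and Cfi stand apart from those of the other groups.

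Vtn is known as a strongly expressed transcript of rod photoreceptors, so it was set against the rod markers of the same mouse. These summed to 27531 to 37409 CPM in vehicle-treated and 37408 to 44045 CPM in TD139-treated mice, below the naïve range in both. Of the 9 rod markers, 6 were lower in vehicle-treated than in naïve mice and 4 higher with TD139 than with vehicle, where 2.89% and 17.2% of all tested genes were. Vtn as a share of that sum was 2.78, 2.504 and 2.11% in naïve, 2.54, 2.73 and 2.41% in vehicle-treated and 2.47, 2.25 and 2.57% in TD139-treated mice. The groups overlapped in this share (two-sided exact permutation p = 0.8 for vehicle-treated against naïve and 0.5 for TD139-treated against vehicle-treated mice, where 0.1 is the smallest possible).

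The summed markers of glia moved with the members that rose, though not every marker did. The summed level of 10 microglia and macrophage markers was 45.7 to 56.2 CPM in naïve, 160 to 259 CPM in vehicle-treated and 38.6 to 108 CPM in TD139-treated mice, with 7 of 10 higher and then 8 of 10 lower and none at 0. That of 10 Müller glia and astrocyte markers was 4999 to 5742, 7628 to 8383 and 5255 to 6959 CPM, with 6 higher and 4 lower. TD139-treated mouse 1 was the highest of its group in both sums, as it was for Cfi, Serping1, Clu and Cr1l. Glul, a Müller glia enzyme, was not called in either comparison (log2 fold changes 0.16 and -0.0028), whereas Vim of the same list was higher with vehicle (1.14, adjusted p = 0.0216 in edgeR) and lower with TD139 than with vehicle (-1.47, adjusted p = 0.00543 in edgeR). Over all tested genes 4.91% were called higher in the first comparison and 16.2% lower in the second. The part of cell numbers in the members' values was not tested.

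Of the other marker lists, 8 pigment epithelium genes summed to 395 to 523, 510 to 727 and 460 to 517 CPM in the same order. A large part of that sum was Trpm1, a channel gene that ON bipolar cells are known to express as well, and without it, a choice made after its values were seen, the other 7 summed to 118 to 286, 237 to 508 and 139 to 201 CPM. With TD139 against vehicle Trpm1 was higher (log2 fold change 0.41, adjusted p = 0.0151 in edgeR), and of the 6 others tested 3 were lower, Rpe65 (-0.83), Ttr (-1.42) and Slc16a8 (-1.51). The sum without Trpm1 was higher in all vehicle-treated than in all TD139-treated mice, as were Clu and Serping1, and overlapped between vehicle-treated and naïve mice. Its part in the members' values was not tested. Endothelial and pericyte markers summed to 261 to 330, 413 to 582 and 315 to 570.4 CPM, and cone markers to 1145 to 1846, 1125 to 1313 and 1335 to 1425 CPM. Kdr, named after its values were seen, was a large part of the endothelial and pericyte sum, with means of 176, 335 and 267 CPM. Between vehicle-treated and naïve mice 0 of 10 endothelial and pericyte markers and 0 of 8 cone markers were called, where 7.8% of all tested genes were. With TD139 against vehicle 1 of 10 endothelial and pericyte markers was higher and 1 lower, and 1 of 8 cone markers higher, no larger shares than the 17.2% higher and 16.2% lower over all tested genes. Neutrophil and monocyte markers stayed at 3.56 CPM or less in every mouse, with 1 to 5 of the 7 in the files at 0, and 4 red cell markers at 21.5 CPM or less.

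The components that these proteins regulate were read from a list of 38 activation and receptor genes, of which 20 were tested. In vehicle-treated against naïve mice 5 were higher and 0 lower, against 4.91% higher and 2.89% lower over all tested genes, with a median log2 fold change of 2.32. The 5 were the receptor for C3a C3ar1 (4.41), factor B Cfb (3.86), the integrin chains Itgb2 (2.55) and Itgam (2.07) of complement receptor 3, and the protease C1s (2.08). In TD139-treated against vehicle-treated mice 6 were lower and 1 higher (Masp2, named after its value was seen), with a median of -1.86 over the 20. Over all tested genes 16.2% were called lower and 17.2% higher in this comparison (33.4% in all). In 15 of the 20 all TD139-treated mice lay below all vehicle-treated mice, as in 25.4% of tested genes. Without TD139-treated mouse 1, 15 of 22 tested were called lower and 2 higher, where 5926 of all genes were called (50.5% of them higher). Among the called genes the largest changes were those of C1qc (-2.83), C1qb (-2.77), Cfb (-2.69), Itgb2 (-2.48) and Itgam (-1.77), and C3ar1 (-2.80, adjusted p = 0.0505 in edgeR) was not called. With the offset for length and GC content C1qc (-2.29, adjusted p = 0.0637 in edgeR) and C1qb (-2.23, adjusted p = 0.0768) were not called, whereas Cfb, Itgb2 and Itgam were. C1qb also lost its call without vehicle-treated mouse 2 (adjusted p = 0.0526 in edgeR). Without TD139-treated mouse 1, C3ar1 was called (-5.17, adjusted p = 0.000516 in edgeR), and C1qb was at -4.37 and C1qc at -4.21. No gene of the list was called between TD139-treated and naïve mice in edgeR (0 of 20, and 775 of all genes) or DESeq2 (0, and 2518 of all genes). In edgeR 0 had an unadjusted p under 0.05, as against 29.6% of tested genes. By limma voom 2 were called lower, where 5467 of all genes were called. Without TD139-treated mouse 1 edgeR called 2 of 22 lower, where it called 1654 of all genes.

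C3, the centre of the cascade, was at 1.96, 2.98 and 2.199 CPM in naïve, 26.8, 26.05 and 41.3 CPM in vehicle-treated and 16.0, 0.870 and 1.15 CPM in TD139-treated mice. It was not called, with adjusted p of 0.0941 and 0.125 in edgeR. C4b (adjusted p = 0.123 and 0.132) and C1qa (0.0605 and 0.0508) were not called either in edgeR, and C1qb (0.0581) and C1qc (0.0507) were not in the first comparison, although in all of these the vehicle-treated mice lay above the naïve and TD139-treated mice. With the offset for length and GC content C1qa, C1qb and C1qc were called in the first comparison (adjusted p = 0.0351, 0.0337 and 0.0312 in edgeR). These calls depended on the fit and on single mice. In the first and second comparisons DESeq2 called 12 and 12 genes of the list, where it called 2418 and 5863 of all genes. By limma voom 14 and 16 of the list were called, and 3333 and 7030 of all genes. The main fit called 1185 and 5072 of all genes. Without TD139-treated mouse 1, C3 was called higher with vehicle than in naïve mice (log2 fold change 3.73, adjusted p = 8.68e-05 in edgeR) and lower with TD139 than with vehicle (-4.96, adjusted p = 4.74e-05), and was called lower with TD139 than in naïve mice (-1.23, adjusted p = 0.0327), where it stood at 1.34 with all mice (adjusted p = 0.459). In the same fit C1qa, C1qb, C1qc and C4b were called in the first comparison (adjusted p = 0.000564, 0.000813, 0.00171 and 0.0176 in edgeR) and in the second (0.000251, 0.000346, 0.000732 and 0.0055). Terminal components were nearly absent, with a summed level of 7 genes of 2.15 CPM or less, so that 1 of them was tested.

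**Figure D5:**
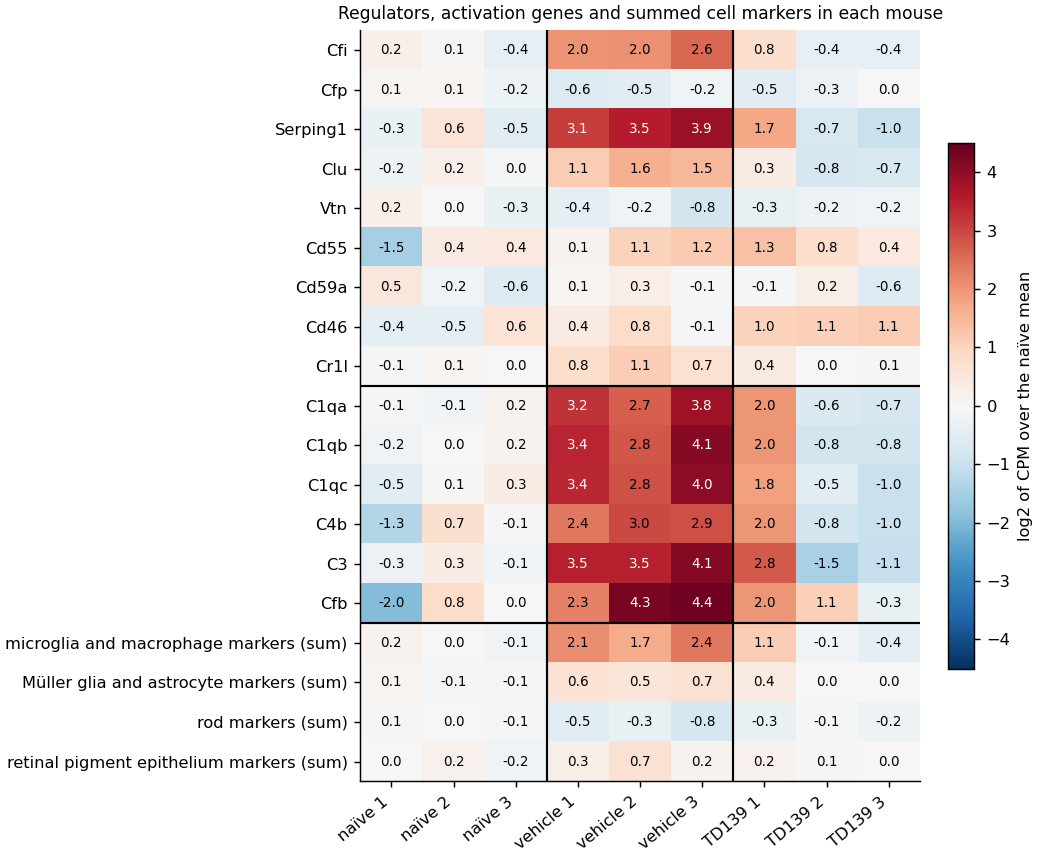
Heat map of the log2 ratio of each mouse's CPM to the naïve mean, for the 9 regulators, 6 activation genes and the summed markers of 4 cell types; rows are genes or sums, columns the 9 mice, and the number in each cell is its value. Cfi, Serping1, Clu and Cr1l share the red vehicle columns with C1qa, C1qb, C1qc, C4b, C3, Cfb and the microglia and macrophage sum, and in these rows, though not in all others, TD139-treated mouse 1 lies between vehicle-treated mice and the other TD139-treated mice.

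Of 12 further regulators listed, 11 were in the files and 7 were tested. In vehicle-treated against naïve mice 1 was lower, the pseudogene C4bp-ps1 (log2 fold change -0.63, adjusted p = 0.0249 in edgeR), which was lower in TD139-treated than in naïve mice as well (-0.54, adjusted p = 0.0467), where 2.89% of tested genes were lower in the first case and 5.1% called in the second. Both calls were lost without vehicle-treated mouse 2 (adjusted p = 0.0505 and 0.0574 in edgeR). With TD139 against vehicle 2 were higher, Csmd1 (1.21, adjusted p = 0.00733 in edgeR) and Csmd3 (0.93, adjusted p = 0.0236), long membrane proteins with complement control domains, both named after their values were seen. In that comparison 17.2% of tested genes were higher. The transcripts of Csmd1 and Csmd3 are 14182 and 13022 bases long, and log2 fold changes of TD139-treated against vehicle-treated mice rose with transcript length across 15068 genes (Spearman correlation 0.50, as a description). With the offset for length and GC content Csmd1 was at 0.79 (adjusted p = 0.0158 in edgeR) and Csmd3 at 0.35 (adjusted p = 0.226). C4bp-ps1, with a transcript of 706 bases, was then at -0.81 between vehicle-treated and naïve mice (adjusted p = 0.0122 in edgeR), but at -0.22 (adjusted p = 0.616) between TD139-treated and naïve mice, and was called higher with TD139 than with vehicle (0.597, adjusted p = 0.0227).

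The genes most like each member were sought among the 13093 tested genes averaging 50 counts or more, by the Pearson correlation of log2 CPM over the 9 mice, which share groups, libraries and depth. For Cfi they were Prdx6 (0.996), a peroxiredoxin, and Arhgdib (0.995). Serping1 was closest to Tmem176a (0.990) and Fads3 (0.990), Clu to Lrp10 (0.993) and the intermediate filament gene Vim (0.993), and Cr1l to Jup (0.982) and Ttc7 (0.974). Vtn was closest to Susd3 (0.981) and Dusp14 (0.980), Cfp to Trmt2a (0.958) and Trim11 (0.951), and Cd59a to Emc2 (0.954) and Lsm6 (0.944). For the low genes the likeness was to Ano1 (0.915) and Hnrnph2 (0.903) in Cd55 and to Pcsk1 (0.977) and Fign (0.977) in Cd46.

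The positions of the members on GRCm38 (GENCODE M21) are as follows. Cfi lies on chromosome 3 from 129835884 to 129875332, Serping1 on chromosome 2 from 84765387 to 84775444, Clu on chromosome 14 from 65968483 to 65981547 and Vtn on chromosome 11 from 78499091 to 78502324. Cfp lies on chromosome X from 20925454 to 20931555 and Cd59a on chromosome 2 from 104095801 to 104115354. On chromosome 1 are Cd55 from 130439027 to 130462744, Cd46 from 195036826 to 195092249 and Cr1l from 195097382 to 195131586.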

How the data were processed

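RNA of whole retinas was sequenced from single ends after poly(A) selection with a stranded kit, on 2 flow cells. The authors counted reads per gene with BaseSpace RNA Express and deposited 1 table per mouse and flow cell. The deposited values are whole-number counts without scaling. The submitters' processing notes name mm10, and the annotation is not given in the sources used here. Reads outside genes (16.5 to 22.8%) and ambiguous reads (0.303 to 0.471%) were left out.

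Counts of both runs were summed per mouse. Groups came from the sample titles and treatment labels. Between runs of a mouse the chi-square per degree of freedom was 1.63 to 1.80, and between mice of a group 16.7 to 73.1. Genes were fitted with edgeR 4.0.16 in R 4.3.3 (filterByExpr, TMM, robust quasi-likelihood F test, all 3 groups), and p-values were adjusted over 15196 genes. The standard error is the log2 fold change divided by the square root of F. Positions, lengths and GC content came from GENCODE M21 on GRCm38, which held 98.4% of the symbols, and promoter sequences from RefSeq. The steps were tested on simulated data.

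Alternatives were DESeq2 1.42.0, limma 3.58.1 (voom with sample quality weights), RLE size factors, library size alone, no low-count filter, only the groups compared, the replicate number as a block, single flow cell runs, a per-mouse spline (4 degrees of freedom) on transcript length and GC content as an offset, and each mouse left out in turn. The members and the gene lists were chosen with earlier results of these data known. Named by rule were all members, C3, C4b and the C1q genes, the 5 called genes of the complement lists with the largest change per comparison, and the 2 genes most like each member. Some genes are not reported here.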

Additional observations from a re-analysis of the deposited data

How the results depend on the processing

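The calls of members depended on the fit and on single mice. Between vehicle-treated and naïve mice, 2 members were called with the replicate block (Cfi and Cr1l) and 2 with flow cell run 1 only, against 4 with all data, and 0 to 4 when a mouse was left out (0 without naïve mouse 2 or vehicle-treated mouse 3). Over all genes the block called 900 and run 1 called 986, against 1185 with all data. Without naïve mouse 2 it was 1 gene, and without vehicle-treated mouse 3 it was 84. Between TD139-treated and vehicle-treated mice 2 to 4 were called with a mouse left out, and between TD139-treated and naïve mice 0 to 1, and 2 with limma voom. In the same fits 1626 to 5926, 0 to 2679 and 5467 of all genes were called. The causes were not tested. Serping1 lost its call in the first comparison with library size alone (adjusted p = 0.0544), no low-count filter (0.0663), the block (0.0971) and run 1 (0.0545), and in the second with only the groups compared (0.0676) and the block (0.0621). Clu lost it with the block (0.0575), and Cr1l with run 1 in the first and second comparisons (0.133 and 0.0884). Of 258 member values under other settings, 230 kept their direction and side of the threshold and 10 changed sign, none of them called. These were, between TD139-treated and naïve mice, Cfi (-0.26 with voom, -0.43 with run 2), Serping1 (-0.94 with voom), and Cfp (0.0773) and Vtn (0.0400) with the length and GC offset. Against vehicle, Cd55 was at -0.0479 with library size alone, -0.0347 with voom and -0.0356 with that offset, and Cd59a at 0.0151 with it. Cd59a was at -0.0207 between vehicle-treated and naïve mice with that offset. With a mouse left out, 206 of 243 values kept both and 8 changed sign: Cfi (-0.35 to 0.33), Serping1 (-0.85 to 0.98) and Cd59a (-0.31 to 0.26) against naïve with TD139, Cd55 (-0.25 to 0.23) against vehicle, and Cd59a (-0.11 to 0.47) with vehicle.

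Mice of the same number did not deviate together (correlations of -0.26 to 0.29) and not every mouse was closest to its own number, so the numbers do not pair the mice. With the replicate block, 2, 3 and 0 members were called in the 3 comparisons, and 3 and 4 genes of the activation list in the first and second. Over all genes it called 900 and 4772 in the first and second. The block called 0 genes between TD139-treated and naïve mice, where the model without it called 775.

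The activation list had 5, 7 and 0 called genes. In the first comparison it had 12 with DESeq2, 14 with voom, 14 with only the groups compared and 9 with that offset, and 0 to 13 with a mouse left out. In the second it had 12 with DESeq2, 16 with voom and 1 to 17 with a mouse left out, and in the third 2 with voom and 0 to 2. Over all genes, 1185 were called between vehicle-treated and naïve mice (63.0% of them higher), 2418 with DESeq2, 3333 with voom and 1501 with only the groups compared. There were 3416 with that offset (26.1% higher), 1151 with library size alone (77.6% higher) and 1 to 1982 with a mouse left out. Between TD139-treated and vehicle-treated mice 5072 were called (51.6% higher), 5863 with DESeq2, 7030 with voom and 1626 to 5926 with a mouse left out. The higher share was 39.0% with library size alone and 70.6% with that offset. Between TD139-treated and naïve mice 775 were called (53.3% higher), 2518 with DESeq2, 5467 with voom, 1 with only the groups compared, 0 with that offset and 0 to 2679 with a mouse left out, and 65.4% of the calls were higher with library size alone. Depth limits Cd55 and Cd46, at 3 to 22 counts per mouse.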
